A study of Homo sapiens with 6 samples.

Results

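The nuclear-encoded genes of the mitochondrial respiratory chain were compared between HK-2 cells with and without silencing of DYRK2. Membership was set by gene name and by no measured value, as the genes whose symbol starts with NDUFA, NDUFB, NDUFC, NDUFS, NDUFV, UQCR, COX4 to COX8, ATP5 or SDH, leaving out pseudogene-type, antisense and divergent-transcript names. This gave 99 genes of 33392 in the table. Of these, 45 belong to complex I, 8 to complex II, 9 to complex III, 17 to complex IV and 18 to complex V, and 2 are read-through loci that span a chain gene and its neighbour. The name rule also takes in assembly factors of complex I (NDUFAF genes) and complex II (SDHAF genes), which are not part of the finished enzymes. HK-2 is an immortalised epithelial line from the human proximal tubule. All 6 RNA-seq libraries came from cells treated with TGF-β1, the cytokine that drives tubular fibrosis, and labelled 48 h. The groups of 3 libraries each differ in the siRNA given, which was a scramble sequence or targeted the protein kinase DYRK2 (siDYRK2). Cells that lacked TGF-β1 were not analysed here, and the values say nothing of the response to the cytokine. Whether the replicates were separate cultures is not stated in the labels, and p-values therefore reflect only the spread among these libraries, which could be technical.

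The respiratory chain passes electrons from NADH, through complex I, or from succinate, through complex II, to ubiquinone, and then through complex III and cytochrome c to oxygen at complex IV. The pumping of protons by complexes I, III and IV powers complex V, the ATP synthase. Complexes I, III, IV and V combine subunits encoded in the nucleus with a few encoded in mitochondrial DNA, whereas complex II is encoded in the nucleus only. Proximal tubule cells in the kidney depend strongly on this machinery for the energy of solute reabsorption.

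The siRNA target was low in every library of its group. DYRK2 (ENSG00000127334) stood at 5.84, 6.06 and 5.96 FPKM with the scramble siRNA and at 1.45, 1.54 and 1.49 FPKM with siDYRK2, which is 25.1% of the scramble mean. Its log2 fold change was −1.69 (SE 0.0513, limma adjusted p = 2.0e-06), and an exact permutation test (two-sided) returned p = 0.1, the lowest value possible with 3 libraries in each group. FPKM is a level per transcript length within a library, so changes of the whole RNA content of a cell cannot be seen in it, and a lower level in each cell cannot be told apart from fewer cells that express the gene. Summed FPKM ranged from 252318 to 255378 per library, and mitochondrially encoded transcripts made up 26.3% to 27.5% of it with the scramble siRNA and 27.6% to 27.8% with siDYRK2. All 8 epithelial markers were detected. Of 12 proximal tubule markers 9 had a row and 0 reached a mean of 0.5 FPKM, so the tubular origin in the label is not visible in these genes. Of the epithelial markers KRT7 was higher and CDH1, KRT18, KRT19 and CLDN4 were lower in siDYRK2, and the 8 together summed to 724 to 740 FPKM with the scramble siRNA and 771 to 812 FPKM with siDYRK2. Without KRT7 the other 7 summed to 339 to 357 FPKM and 242 to 254 FPKM. The 6 fibroblast markers with a row summed to 0.37 to 0.42 FPKM and 0.64 to 0.81 FPKM, the 5 endothelial markers to 0.05 to 0.09 FPKM and 0.10 to 0.16 FPKM, and the 4 immune markers with a row, nearly all of it CD68, to 11.5 to 18 FPKM and 17.03 to 17.8 FPKM. Their part in the differences of respiratory chain genes was not tested.

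Many respiratory chain genes were slightly higher in the siDYRK2 libraries, and few were lower. Of the 93 genes that reached an average of 0.5 FPKM over the 6 libraries, 42 were higher and 3 were lower by limma at an adjusted p under 0.05, and 48 did not pass. Among all 15121 genes tested the same call was made for 20.4% in the higher and 17.9% in the lower direction, 38.3% in all. Among protein-coding genes tested these shares were 24.4% and 18.5%, and among those with a mean of 10 FPKM or more 33.3% and 22.2%. The counts given below for complexes and classes are to be read against these shares. The difference in mean log2(FPKM + 0.5), siDYRK2 minus scramble, was positive for 80 of the 93 genes, against 7780 of 15121 genes in all. Its median was 0.15, against 0.0086 for all genes and 0.027 for protein-coding genes, and corresponds to a median rise in mean FPKM of 12.5%. The differences were small. No gene of the chain reached a log2 fold change of 1 in either direction, and the called genes lay between −0.36 and 0.53. At an unadjusted limma p under 0.05 the counts were 51 higher and 3 lower, and each count of 0 called genes given for a group of genes in the text was also 0 at that level. The FPKM of the siDYRK2 libraries lay wholly above those of the scramble libraries for 53 of the 93 genes, against 27.4% of all genes tested. Scalings of the table other than the deposited one gave 39 to 42 genes called higher and 3 called lower. Of the 42 increases 28 were called in all 15 alternative analyses that were run, and the other 14, among them those of NDUFV2, UQCRB, UQCRC2, COX4I1, COX6B1 and COX7A2, were lost in at least 1.

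**Figure D1:**
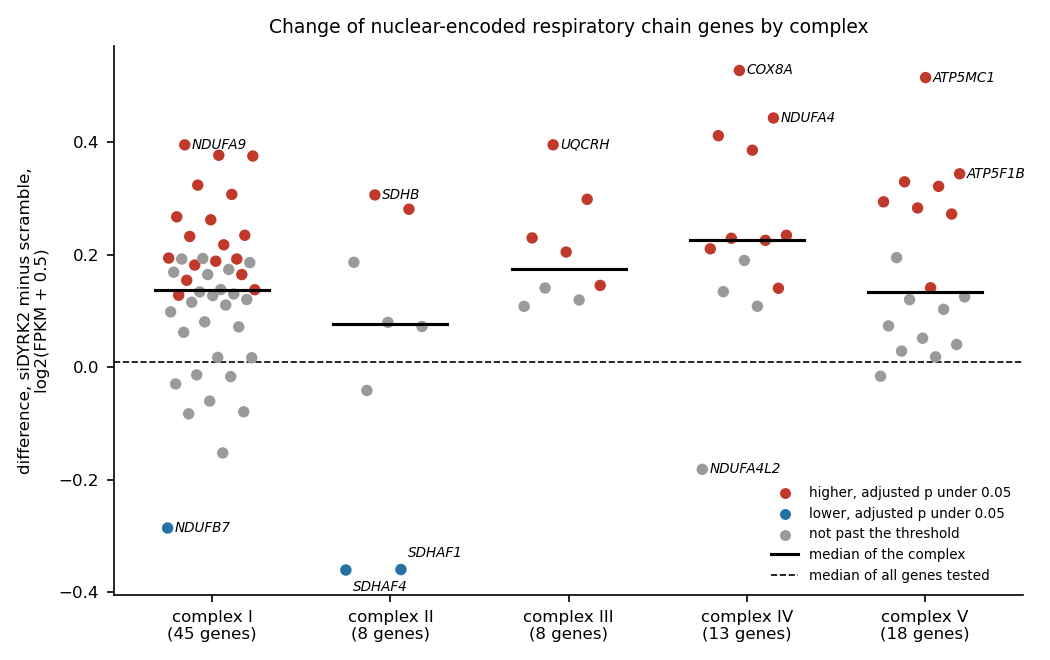
Each point is a respiratory chain gene with a mean of at least 0.5 FPKM, placed by complex (horizontal axis) and by the difference between the siDYRK2 and scramble means on the log2(FPKM + 0.5) scale (vertical axis). Red and blue points passed the limma threshold, solid bars are medians of the complexes, and the dashed line is the median of all 15121 genes. The medians of all 5 complexes lie above the dashed line, and the 3 blue points are NDUFB7, SDHAF1 and SDHAF4. The 2 read-through loci are not shown.

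The genes were also compared by the letters of their promoters, because 42 of the 45 called genes were higher. Promoter windows from RefSeq (GRCh38.p14), from 250 bases before to 50 bases after the start site, were matched to 81 of the 99 genes. Each was searched on both strands for CCGGAAG, the core of sites for ETS factors such as GABP, for GCGCATGCG, the core of sites for NRF1, for TGACGTCA, the cyclic AMP response element, and for CCAAT, the core of NF-Y sites. None of these words contains another. GABP and NRF1 are known regulators of respiratory chain genes. The ETS core was present in 30.9% of the 81 genes, 23.3% of tested protein-coding genes and 12.2% of all 27305 genes in the promoter table. For the NRF1 core the shares were 14.8%, 4.35% and 2.34%, for the cyclic AMP element 6.17%, 3.90% and 2.25%, and for CCAAT 35.8%, 43.3% and 39.7%. Within the chain, the ETS core was present in 9 of 34 genes called higher and 15 of 41 not called, the NRF1 core in 3 of 34 and 9 of 41, the cyclic AMP element in 2 of 34 and 3 of 41, and CCAAT in 14 of 34 and 13 of 41. These splits were not tested. A match describes the letters and does not show binding.

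The windows below show the 250 bases before the RefSeq start site of the genes with the largest called increase and decrease of each complex. They let the letters be read beside genes of both directions. The increases are NDUFA9 (chr12:4648864-4649113, plus strand), SDHB (chr1:17054033-17054282, minus strand), UQCRH (chr1:46303448-46303697, plus strand), COX8A (chr11:63974370-63974619, plus strand) and ATP5MC1 (chr17:48892537-48892786, plus strand). The decreases are NDUFB7 (chr19:14572067-14572316, minus strand) and SDHAF4 (chr6:70566680-70566929, plus strand), since complexes III, IV and V had none. This rule was set after the values were seen. Each window is written from 5′ to 3′ on the strand of the gene, with the searched words in capitals on whichever strand they were read.
NDUFA9: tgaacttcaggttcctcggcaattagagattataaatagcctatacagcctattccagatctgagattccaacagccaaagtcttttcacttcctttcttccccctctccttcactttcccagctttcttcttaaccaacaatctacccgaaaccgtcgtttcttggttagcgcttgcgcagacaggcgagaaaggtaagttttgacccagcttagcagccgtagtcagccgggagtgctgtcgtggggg
SDHB: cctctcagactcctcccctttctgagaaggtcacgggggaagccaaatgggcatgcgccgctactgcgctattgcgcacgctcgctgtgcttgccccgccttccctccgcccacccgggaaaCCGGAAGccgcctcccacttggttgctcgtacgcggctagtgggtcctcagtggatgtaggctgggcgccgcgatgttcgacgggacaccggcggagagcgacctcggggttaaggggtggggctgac
UQCRH: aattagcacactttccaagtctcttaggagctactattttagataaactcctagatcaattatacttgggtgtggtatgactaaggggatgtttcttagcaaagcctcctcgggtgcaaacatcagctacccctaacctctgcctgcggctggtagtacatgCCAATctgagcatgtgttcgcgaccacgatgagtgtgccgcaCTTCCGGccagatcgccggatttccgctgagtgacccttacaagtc
COX8A: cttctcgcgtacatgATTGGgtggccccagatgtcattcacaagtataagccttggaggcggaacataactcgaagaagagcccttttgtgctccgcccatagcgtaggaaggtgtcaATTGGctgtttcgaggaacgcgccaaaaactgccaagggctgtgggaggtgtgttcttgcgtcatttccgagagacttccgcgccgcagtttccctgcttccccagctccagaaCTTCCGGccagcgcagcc
ATP5MC1: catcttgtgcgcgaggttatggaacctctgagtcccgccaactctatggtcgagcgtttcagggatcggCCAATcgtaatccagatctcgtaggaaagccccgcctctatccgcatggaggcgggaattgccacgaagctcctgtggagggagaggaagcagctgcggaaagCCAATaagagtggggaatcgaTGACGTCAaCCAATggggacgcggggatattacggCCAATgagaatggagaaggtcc
NDUFB7: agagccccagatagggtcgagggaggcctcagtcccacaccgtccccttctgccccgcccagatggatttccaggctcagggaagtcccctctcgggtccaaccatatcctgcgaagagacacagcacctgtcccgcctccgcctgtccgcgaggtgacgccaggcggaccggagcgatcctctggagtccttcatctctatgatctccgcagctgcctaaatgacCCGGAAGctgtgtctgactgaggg
SDHAF4: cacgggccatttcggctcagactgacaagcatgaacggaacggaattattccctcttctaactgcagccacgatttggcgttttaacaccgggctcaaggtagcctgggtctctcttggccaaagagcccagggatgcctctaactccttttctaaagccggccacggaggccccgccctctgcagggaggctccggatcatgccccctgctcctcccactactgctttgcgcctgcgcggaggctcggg
An ETS core is present in 4 of the 7 windows, in genes of both directions. It begins 128, 46 and 18 bases before the RefSeq starts of SDHB, UQCRH and COX8A, which were higher. In NDUFB7, which was lower, it begins 24 bases before the RefSeq start. The gene coordinates given elsewhere are from GENCODE, whose starts differ from these. By the GENCODE coordinates, the ETS cores of SDHB and UQCRH lie inside the gene and not before its start. ATP5MC1 has no ETS core but a cyclic AMP element and 4 CCAAT words, COX8A has 2 CCAAT words read on the opposite strand, and UQCRH has 1. SDHB has a cyclic AMP element that runs across its RefSeq start site and is therefore not in capitals. The windows of NDUFA9 and SDHAF4 hold 0 of the words searched.

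Complex I showed its largest share of calls in the core subunits, which carry the flavin, the iron-sulphur clusters and the quinone site of the enzyme. Of 7 nuclear core subunits 6 were higher and 0 lower, at a median difference of 0.23 on the log2 scale. NDUFS1, the largest subunit and carrier of several iron-sulphur clusters, stood at 6.08, 6.25 and 5.80 FPKM with the scramble siRNA and at 7.76, 7.68 and 7.62 FPKM with siDYRK2 (log2 fold change 0.32, SE 0.0430, limma adjusted p = 0.00116). All siDYRK2 values exceeded all scramble values, but exons of NDUFS1 overlap those of EEF1B2 on the opposite strand, which stood at a mean of 79.9 FPKM. NDUFV1, which binds NADH, stood at 20.7, 21.2 and 22.6 FPKM and at 26.9, 24.9 and 26.1 FPKM (log2 fold change 0.27, limma adjusted p = 0.00342). Its partner in the NADH-binding module, NDUFV2, stood at 19.4, 20.9 and 22.3 FPKM and at 23.8, 22.9 and 24.3 FPKM (log2 fold change 0.18, limma adjusted p = 0.0319), with groups that are separated by a small gap only. NDUFS7 and NDUFS8, which hold the last iron-sulphur clusters before the quinone, rose 1.16-fold and 1.18-fold (limma adjusted p = 0.0120 and 0.00315). NDUFS3 was the core subunit that did not pass (limma adjusted p = 0.368). It stood at 4.59, 5.13 and 5.17 FPKM against 5.16, 5.02 and 5.65 FPKM, and its groups overlap. Exons of NDUFS3 overlap those of PTPMT1 on the same strand, at a mean of 14.6 FPKM. They also overlap those of CELF1 and KBTBD4 on the opposite strand, at 10.8 and 1.83 FPKM.

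The accessory subunits of complex I surround the core and are needed for assembly and stability. Of 30 in the table, 10 were higher and 1 was lower, and the median log2 fold change was 0.14. The share higher was 33.3%, against 20.4% of all genes tested and 33.3% of protein-coding genes with a mean of 10 FPKM or more. NDUFA9, which lies beside the quinone site, had the largest increase in complex I, from 3.04, 2.95 and 3.04 FPKM to 3.96, 4.02 and 4.38 FPKM (log2 fold change 0.40, SE 0.0556, limma adjusted p = 0.00151). NDUFB9 rose from 1.98, 2.13 and 2.24 FPKM to 2.94, 2.75 and 3 FPKM (log2 fold change 0.38, limma adjusted p = 0.00381). Its level is low, and its exons overlap those of TATDN1 on the opposite strand, at a mean of 6.63 FPKM. NDUFB8, NDUFB3 and NDUFS5 rose 1.21-fold, 1.27-fold and 1.18-fold. The remaining genes called higher were NDUFA2, NDUFA6, NDUFA8, NDUFB10 and NDUFB11, with log2 fold changes from 0.14 to 0.22.

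NDUFB7 (ENSG00000099795; chromosome 19, 14566078 to 14572062, minus strand), a subunit on the intermembrane side of the membrane arm, went against the others. It stood at 52.2, 50.6 and 49.5 FPKM with the scramble siRNA and at 43.7, 39.9 and 41.1 FPKM with siDYRK2. The highest siDYRK2 value is below the lowest scramble value, and the log2 fold change was −0.29 (SE 0.0410, limma adjusted p = 0.00164). Its mean scramble level, 50.7 FPKM, was the highest of complex I. NDUFA12 was also lower in every siDYRK2 library, at 3.72, 3.99 and 4.08 FPKM against 3.17, 3.69 and 3.61 FPKM, but did not pass (limma adjusted p = 0.120). The other accessory subunits below 0 that did not pass were NDUFA1, NDUFC1, NDUFC2 and NDUFS4.

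NDUFC2 is read together with its read-through locus NDUFC2-KCTD14, and the division between the 2 entries was unstable in the scramble libraries. NDUFC2 stood at 11.0, 16.1 and 17.4 FPKM with the scramble siRNA and at 14.0, 13.0 and 14.2 FPKM with siDYRK2, whereas NDUFC2-KCTD14 stood at 21.7, 8.05 and 4.29 FPKM and at 13.5, 15.5 and 15.4 FPKM. Scramble replicate 1 was low in NDUFC2 and high in the read-through entry. The sum of the entries was 32.7, 24.1 and 21.7 FPKM against 27.5, 28.5 and 29.6 FPKM, and the groups overlap. The log2 fold change of NDUFC2-KCTD14, 0.66, was the largest of the 93 genes and did not pass (SE 0.482, limma adjusted p = 0.322).

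Of 8 assembly factors of complex I in the name rule, NDUFAF1 and NDUFAF4, which join subcomplexes during assembly, were higher by 1.10-fold and 1.13-fold (limma adjusted p = 0.0453 and 0.0227), and 0 were lower. Across complexes I and II, 2 of the 12 assembly factors taken in by the names were higher and 2 lower. These shares are close to those over all genes tested, 20.4% and 17.9%. Of the 78 structural subunits of all complexes, 38 were higher and 1 was lower, and the difference between the counts was not tested. Median log2 fold changes were 0.10 for the assembly factors and 0.17 for the structural subunits.

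Complex II, the succinate dehydrogenase of the citric acid cycle, had 2 of its 8 genes higher and 2 lower. These shares, 25% each, are near those over all genes tested, 20.4% and 17.9%. Its median log2 fold change was 0.076. SDHB (ENSG00000117118; chromosome 1, 17018722 to 17054170, minus strand), the iron-sulphur subunit, stood at 16.8, 16.8 and 16.8 FPKM with the scramble siRNA and at 21.0, 20.7 and 21.0 FPKM with siDYRK2. It had the smallest spread of the 4 subunits, and its log2 fold change was 0.31 (SE 0.0292, limma adjusted p = 0.000277). SDHA, the flavoprotein that oxidises succinate, stood at 24.5, 21.6 and 23.3 FPKM and at 28.8, 26.5 and 29.4 FPKM (log2 fold change 0.28, SE 0.0578, limma adjusted p = 0.00779). The SDHA-like pseudogenes SDHAP1 and SDHAP4 stood at 19.7% and 13.5% of the mean level of SDHA. A second entry named SDHAP1 stood at 10.3%, SDHAP2 at 3.04% and SDHAP3 at 2.71%. None of these entries was called. How reads were divided among these copies is not given in the sources used here.

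Neither membrane anchor passed, SDHC or SDHD, which bind ubiquinone. SDHC stood at 46.7, 46.7 and 45.3 FPKM against 50.8, 47.8 and 48.3 FPKM, so that its groups do not overlap (log2 fold change 0.08, limma adjusted p = 0.105). SDHD stood at 43.9, 42.2 and 42.3 FPKM against 42.0, 43.3 and 39.4 FPKM (log2 fold change −0.04, limma adjusted p = 0.464), with overlap between the groups. Both have exons that overlap a gene on the opposite strand, CFAP126 at 28.7% of the level of SDHC and TIMM8B at 43.6% of that of SDHD.

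The assembly factors of complex II held 2 of the 3 decreases in the chain. SDHAF1 (ENSG00000205138; chromosome 19, 35995199 to 35996315, plus strand), which helps insert the iron-sulphur clusters into SDHB, stood at 13.3, 11.9 and 12.7 FPKM and at 10.4, 9.70 and 9.09 FPKM (log2 fold change −0.36, SE 0.0610, limma adjusted p = 0.00343). SDHAF4, which assists SDHA after it has received its flavin, stood at 3.04, 3.19 and 2.94 FPKM and at 2.14, 2.5 and 2.18 FPKM (log2 fold change −0.36, SE 0.0705, limma adjusted p = 0.00630). For both, every siDYRK2 value is below every scramble value, while the subunits they serve were higher. SDHAF2, which promotes the attachment of flavin to SDHA, and SDHAF3 overlapped between groups and did not pass (limma adjusted p = 0.144 and 0.379).

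Complex III, which passes electrons from ubiquinol to cytochrome c, had 5 of 8 tested genes higher and 0 lower. Its median log2 fold change was 0.18. UQCRH (ENSG00000173660; chromosome 1, 46303631 to 46316776, plus strand), the hinge protein that contacts cytochrome c1, stood at 42.4, 39.95 and 44.2 FPKM with the scramble siRNA and at 56.2, 55.0 and 55.7 FPKM with siDYRK2. This was the largest increase in complex III (log2 fold change 0.40, SE 0.0406, limma adjusted p = 0.000382). The near-identical gene UQCRHL was listed at 0.29 to 0.48 FPKM, below the expression filter. UQCR10, a small subunit, rose from 20.2, 20.3 and 19.3 FPKM to 23.9, 23.5 and 26.5 FPKM (log2 fold change 0.30, limma adjusted p = 0.00355). UQCRFS1, the Rieske iron-sulphur protein, stood at 16.1, 15.4 and 15.1 FPKM and at 17.7, 18.4 and 18.8 FPKM (log2 fold change 0.23, SE 0.0397, limma adjusted p = 0.00367), again with no overlap. UQCRB rose 1.17-fold, and UQCRC2, a core protein, 1.11-fold (limma adjusted p = 0.0269 and 0.0156). The other core protein, UQCRC1, stood at 13.6, 13.7 and 14.8 FPKM and at 14.7, 15.5 and 15.3 FPKM and did not pass (log2 fold change 0.11, limma adjusted p = 0.0910). Its groups overlap through scramble replicate 3, without which its log2 fold change was 0.14 and passed (limma adjusted p = 0.0340). In the other 14 alternative analyses it did not pass, with an adjusted p of up to 0.231.

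Complex IV, cytochrome c oxidase, had the highest share of genes called higher, 9 of 13 tested, with 0 lower and a median difference of 0.23 on the log2 scale. For 12 of the 13 tested genes, all but NDUFA4L2, the siDYRK2 values lay wholly above the scramble values, against 27.4% of all genes tested. COX8A (ENSG00000176340; chromosome 11, 63974607 to 63976543, plus strand), a small membrane subunit, had the largest log2 fold change of the called genes. It stood at 88.7, 95.0 and 113 FPKM with the scramble siRNA and at 142, 133 and 152 FPKM with siDYRK2 (log2 fold change 0.53, SE 0.0904, limma adjusted p = 0.00356). Scramble replicate 3 is the highest of its group, and a gap to the siDYRK2 values remains. NDUFA4, first described as a complex I subunit and now placed in complex IV, stood at 13.0, 12.4 and 12.8 FPKM and at 16.9, 17.6 and 18.01 FPKM (log2 fold change 0.44, SE 0.0383, limma adjusted p = 0.000182). COX7B stood at 4.36, 4.96 and 5.49 FPKM and at 6.74, 6.05 and 7.39 FPKM (log2 fold change 0.41, limma adjusted p = 0.0126), with a wider spread in both groups. COX6A1, the non-muscle isoform of its subunit, stood at 60.6, 59.4 and 62.7 FPKM and at 78.6, 77.2 and 83.5 FPKM (log2 fold change 0.39, SE 0.0391, limma adjusted p = 0.000363).

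The remaining subunits of complex IV had smaller differences. COX4I1, the general isoform of the subunit through which ATP slows the enzyme, stood at 29.2, 30.8 and 31.5 FPKM and at 34.3, 33.7 and 33.1 FPKM (log2 fold change 0.14, limma adjusted p = 0.0214). COX5A, its neighbour, stood at 46.7, 44.2 and 46.6 FPKM and at 53.5, 51.4 and 54.4 FPKM (log2 fold change 0.21, limma adjusted p = 0.00362). COX5B, a zinc-binding subunit, stood at 14.7, 16.9 and 17.5 FPKM and at 17.7, 18.1 and 17.99 FPKM and did not pass (limma adjusted p = 0.134). Scramble replicate 1 is low in COX5B, and the other scramble values come close to the siDYRK2 values. COX6B1 and COX7A2 rose 1.18-fold and 1.19-fold (limma adjusted p = 0.0191 and 0.0242), while COX6C and COX7C did not pass (0.0821 and 0.0736). COX7A2L, which tethers complex III to complex IV in supercomplexes, stood at 10.1, 10.7 and 11.0 FPKM and at 12.3, 12.9 and 12.3 FPKM (log2 fold change 0.23, limma adjusted p = 0.00654).

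The isoforms of complex IV that mark other tissues or conditions were low or not called. COX7A1, the muscle isoform, was listed at 0 to 0.23 FPKM, and COX6B2, COX7B2 and COX8C, known from testis, at 0.24 FPKM or less. NDUFA4L2, a relative of NDUFA4 that is induced by hypoxia, stood at 1.88, 1.40 and 2.05 FPKM and at 1.66, 1.64 and 1.21 FPKM (log2 fold change −0.18, limma adjusted p = 0.347). This was the only tested gene of complex IV with a negative difference, its groups overlap, and its exons overlap those of SHMT2 on the opposite strand, at a mean of 70.6 FPKM.

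Complex V, the ATP synthase, had 8 of 18 genes higher and 0 lower, and the median log2 fold change was 0.13. ATP5F1B (ENSG00000110955; chromosome 12, 56638175 to 56646068, minus strand), the catalytic beta subunit, had the highest level of the nuclear genes studied. It stood at 350.4, 356 and 352 FPKM with the scramble siRNA and at 443, 444 and 456 FPKM with siDYRK2 (log2 fold change 0.34, SE 0.0272, limma adjusted p = 0.000121). The spread within each group is small beside the difference. ATP5F1A, the alpha subunit that alternates with beta in the F1 head, stood at 22.9, 22.7 and 22.4 FPKM and at 27.2, 27.96 and 28.6 FPKM (log2 fold change 0.29, SE 0.0319, limma adjusted p = 0.000473). Beta stood at 15.6 ± 0.235 times the FPKM of alpha with the scramble siRNA and 16.1 ± 0.222 times with siDYRK2 (SD, n = 3). Alpha and beta are present in equal number in the enzyme. The ratio of FPKM, however, depends on the transcript lengths used by the authors, which are not given. In GENCODE the lengths are 5818 bases for ATP5F1A and 1839 bases for ATP5F1B. Exons of ATP5F1A also overlap those of HAUS1 on the opposite strand, at 36.1% of its level. In the central stalk ATP5F1D, the delta subunit, rose 1.26-fold (limma adjusted p = 0.000376). ATP5F1C, the gamma subunit that turns inside the head, stood at 43.8, 41.3 and 41.3 FPKM and at 44.1, 47.4 and 44.4 FPKM (log2 fold change 0.10, limma adjusted p = 0.0849), and ATP5F1E overlapped between groups.

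The membrane part of complex V was divided. Of 12 subunits of the membrane part and the peripheral stalk, 4 were higher, 8 did not pass and 0 were lower. The share higher was 33.3%, against 20.4% of all genes tested. It was also 33.3% among protein-coding genes with a mean of 10 FPKM or more, so this share does not set these subunits apart. The c subunit, which forms the rotating ring, is made from the genes ATP5MC1, ATP5MC2 and ATP5MC3, which encode the same mature protein. ATP5MC1 stood at 12.6, 13.1 and 12.8 FPKM and at 18.5, 18.4 and 18.8 FPKM, the largest log2 fold change in complex V (0.52, SE 0.0329, limma adjusted p = 4.85e-05). ATP5MC3 stood at 9.17, 8.54 and 8.66 FPKM and at 10.8, 10.5 and 10.8 FPKM (log2 fold change 0.27, limma adjusted p = 0.00216). ATP5MC2, the most abundant of the 3 genes, stood at 28.98, 29.2 and 26.95 FPKM and at 28.2, 28.8 and 30.6 FPKM, with overlapping groups (log2 fold change 0.04, limma adjusted p = 0.529). In the peripheral stalk ATP5PO, which confers oligomycin sensitivity, rose 1.22-fold and ATP5PB 1.10-fold (limma adjusted p = 0.00540 and 0.00954), whereas ATP5PD and ATP5PF did not pass (0.292 and 0.725). ATP5IF1, the protein that inhibits ATP hydrolysis by the enzyme, stood at 14.0, 14.1 and 13.3 FPKM and at 17.1, 17.5 and 17.6 FPKM (log2 fold change 0.32, SE 0.0366, limma adjusted p = 0.000584).

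**Figure D2:**
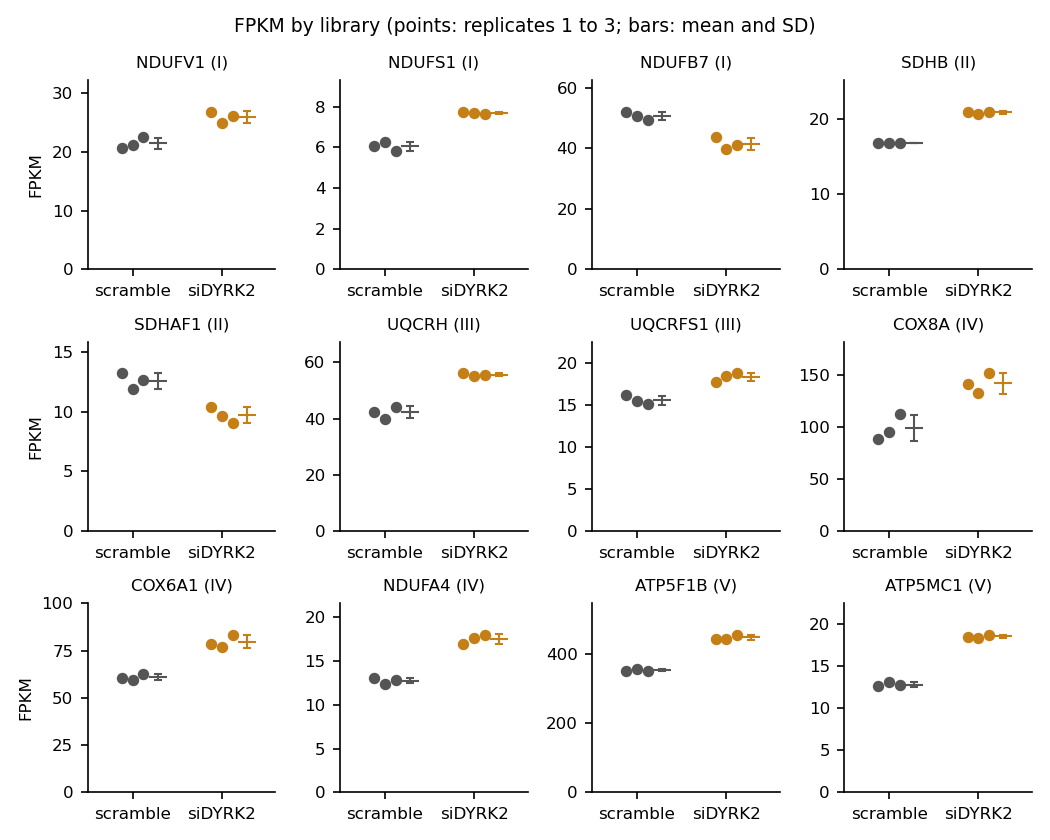
FPKM (vertical axis, from 0) of 12 respiratory chain genes in the 3 scramble and 3 siDYRK2 libraries; points are libraries, bars are the mean and SD, and the complex is in brackets. In 10 genes all siDYRK2 points lie above all scramble points, and in NDUFB7 and SDHAF1 they lie below.

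The direction was shared by the libraries of each group. The 99 genes together summed to 1876, 1873 and 1932 FPKM in the scramble libraries and 2200.2, 2168 and 2259 FPKM in the siDYRK2 libraries, or 0.735% to 0.761% and 0.853% to 0.888% of all FPKM. When each gene was centred on its mean over the 6 libraries, the median deviation of the 93 tested genes was −0.098, −0.090 and −0.063 with the scramble siRNA and 0.076, 0.058 and 0.10 with siDYRK2. By complex, the exception was complex II, since its median in scramble replicate 1 was 0.022 and that in siDYRK2 replicate 3 was −0.034. Within their groups, the libraries numbered 3 were most often the highest. Scramble replicate 3 was the highest of its group in 47.3% of the tested chain genes and 36.3% of all genes, and siDYRK2 replicate 3 in 49.5% and 28.9%.

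**Figure D3:**
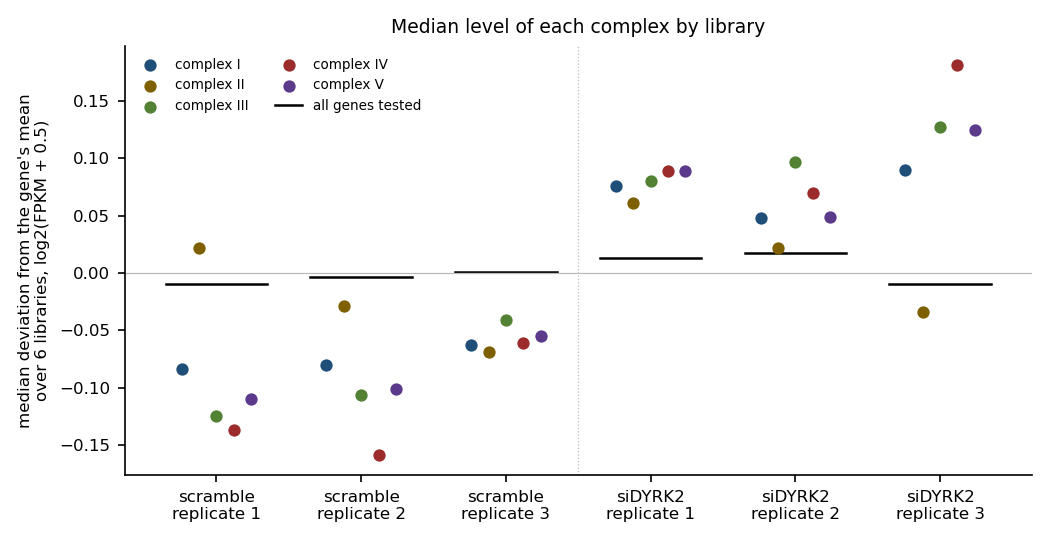
Median deviation of the genes of each complex from their mean over the 6 libraries (vertical axis, log2(FPKM + 0.5) scale) in each library (horizontal axis); black bars give the same for all tested genes. Complexes I, III, IV and V lie below 0 in all 3 scramble libraries and above 0 in all 3 siDYRK2 libraries, while complex II does not.

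Levels differed widely within the chain. Mean FPKM of the tested genes ran from 1.37 (NDUFAF6) to 400.4 (ATP5F1B), with a median of 14.6. The genes called either way had a median level of 15.7 FPKM and a median SE of 0.0441, and those not called 11.3 FPKM and 0.0660. The Spearman correlation of the log2 fold change across the 93 genes, which share the same 6 libraries, was 0.19 with the level and 0.0039 with the transcript length. Splits by length and level were set after the values were seen. Of chain genes with a transcript under 1000 bases 20 of 42 were higher, against 115 of 593 protein-coding genes of that length. Of chain genes with a mean of 10 FPKM or more 30 of 60 were higher, against 1420 of 4264 protein-coding genes at that level.

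Some of these values may include reads of other genes, because how strand was used in the counting is not given. Exons of 26 tested chain genes overlap exons of another gene whose mean is at least 20% of their own, a limit set after the values were seen. Of these, 9 were higher and 0 lower. The 9 are NDUFA2, NDUFB3, NDUFB8, NDUFB9, NDUFB11, NDUFS1, COX4I1, ATP5F1A and ATP5PB. In some the other gene had the higher level, as with RBM10 at 244% of NDUFB11 and IK at 171% of NDUFA2. Of the other 67 tested genes, 33 were higher and 3 lower.

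Related genes outside the name rule were counted from lists of the same pathway, chosen, like the group itself, with earlier results of these data known. Their counts are to be read against the 20.4% of all genes tested that were higher and the 17.9% that were lower. CYC1, the cytochrome c1 of complex III, rose from 46.4, 49.3 and 54.6 FPKM to 63.7, 59.7 and 64.5 FPKM (log2 fold change 0.32, limma adjusted p = 0.00595). CYCS, cytochrome c itself, did not pass (31.9 and 33.4 FPKM, limma adjusted p = 0.353). Of the 13 subunits encoded in mitochondrial DNA 2 were higher and 1 lower, and the median difference was 0.05 on the log2 scale. MT-CO1, the catalytic subunit of complex IV, rose 1.18-fold and MT-ND1 1.13-fold, and MT-ND6, the subunit encoded on the other strand of the mitochondrial genome, fell from 1635 to 1403 FPKM (limma adjusted p = 0.0327). Assembly factors were called higher and lower in 5 and 2 of 12 for complex I, 2 and 1 of 9 for complex III, 4 and 0 of 25 for complex IV and 0 and 0 of 6 for complex V. The shares called higher for complexes III, IV and V and for the mitochondrially encoded subunits are near or below that of all genes. BCS1L, which inserts the Rieske protein into complex III, and its partner in that step LYRM7 rose 1.29-fold and 1.26-fold, and UQCC1, needed for the synthesis of cytochrome b, fell (log2 fold change −0.17). In complex IV assembly COX15 and SCO1, which act in haem A synthesis and copper delivery, rose 1.17-fold and 1.16-fold.

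Of 12 tested genes in the list of transcription factors and coactivators of the chain 8 were higher and 1 lower. The 8 include POLRMT, TFAM, TFB1M and TFB2M, which act on the mitochondrial genome or its transcripts. The count therefore does not describe regulators of the nuclear genes alone. POLRMT, the mitochondrial RNA polymerase, rose from 14.7, 15.5 and 15.0 FPKM to 19.9, 19.8 and 20.4 FPKM (log2 fold change 0.40, limma adjusted p = 0.000180). The subunits of GABP did not move together. GABPB1, a beta subunit, rose 1.36-fold from a mean of 3.85 to 5.21 FPKM, GABPB2, the other beta subunit, fell from 2.92 to 2.08 FPKM, and GABPA, which binds DNA, did not pass (11.9 and 11.1 FPKM, limma adjusted p = 0.149). PPARGC1B and ESRRA, a coactivator and a nuclear receptor that act on respiratory genes, rose 1.47-fold and 1.14-fold. The level of PPARGC1B, a mean of 0.71 and then 1.04 FPKM, is near the filter of 0.5 FPKM, and its log2 fold change was 0.35. TFAM, TFB1M, TFB2M and PPRC1 were also higher, and PPARGC1A was listed at 0.01 FPKM or less. NRF1 and YY1 did not pass (limma adjusted p = 0.192 and 0.392).

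In the citric acid cycle, which feeds the chain, 7 of 13 genes were higher and 1 was lower. CS, the citrate synthase, rose from 36.9, 38.1 and 37.8 FPKM to 51.4, 51.6 and 52.9 FPKM (log2 fold change 0.46, limma adjusted p = 4.55e-05). MDH2, the malate dehydrogenase, rose 1.40-fold, and DLD, the lipoamide dehydrogenase shared by several complexes, fell from 18.4 to 14.7 FPKM. The enzymes that deliver electrons to ubiquinone by other routes went both ways, with 3 of 7 higher and 2 lower. GPD2, the mitochondrial glycerol-3-phosphate dehydrogenase, rose 1.41-fold, and SQOR, which oxidises hydrogen sulphide, fell from 23.3 to 17.3 FPKM. Of 8 genes of cristae organisation, the folds of the inner membrane that hold the chain, 3 were higher (IMMT, MICOS10 and OPA1) and 1 lower (CHCHD3).

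**Figure D4:**
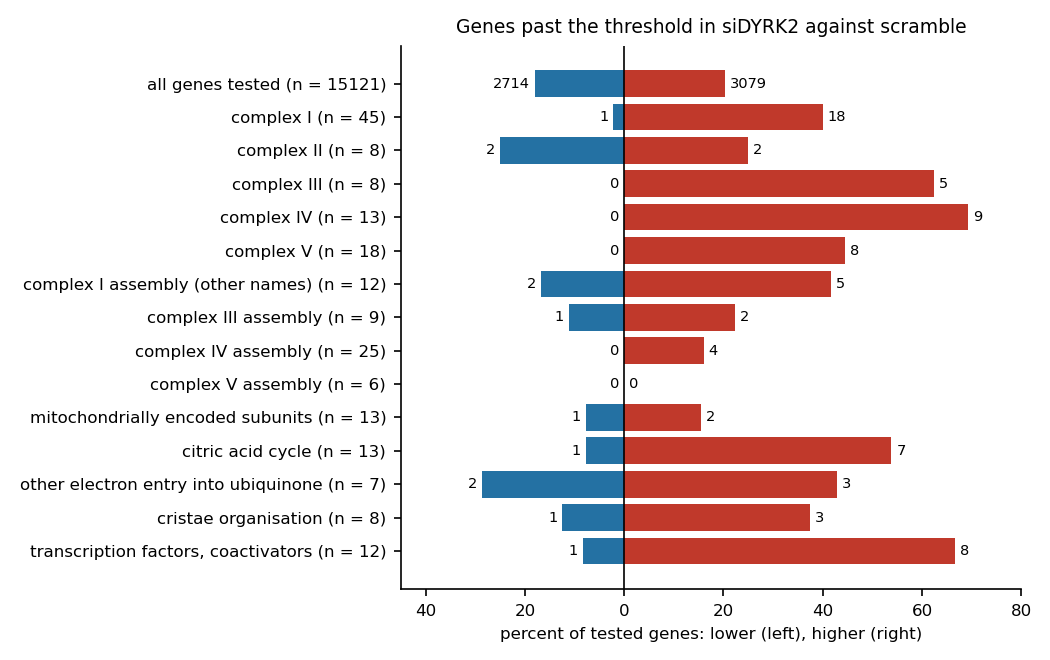
Percent of tested genes called higher (red, to the right) and lower (blue, to the left) by limma at an adjusted p under 0.05 in all genes, in each complex and in the related lists; numbers beside the bars count the genes. Complexes III and IV and the list of transcription factors have more than 60% of their genes higher, against 20.4% of all genes tested. Among protein-coding genes tested the share was 24.4%. The list of transcription factors includes genes that act on the mitochondrial genome or its transcripts.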

How the data were processed

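Per the labels' protocols, total RNA was extracted with Trizol, treated with DNase I and sequenced on an Illumina instrument. HISAT2, StringTie and the build GRCh38 are named in the submitters' processing notes, with neither versions nor roles. The deposited values are FPKM computed by the authors and rounded to 2 decimals, 1 column for each of the 6 libraries, with 0 other columns of values. Annotation, use of strand and any filters are not given. The depth is unknown: of values of short genes with 1 transcript multiplied by length, at most 25.4% to 27.9% in a library came within 0.1 of whole multiples of a common step, against 20% by chance, so whole reads were not recovered. Precision was therefore judged from the spread over 3 libraries.

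Genes averaging 0.5 FPKM or more over the 6 libraries were fitted with limma 3.58.1 (R 4.3.3) on log2(FPKM + 0.5), with a mean-variance trend and no covariate, and Benjamini-Hochberg adjustment over all 15121 genes at 0.05. On this scale the change of low genes is understated. Values written "1.16-fold" are ratios of mean FPKM. All members of the name rule could be named, with fuller values for a fixed panel and the largest called changes of each complex. The name rule uses no measured value, but the group, the lists and the panel were chosen with earlier results of these data known. COX4I2 of the panel had no row in the table, and some genes that the rule takes in are counted but not reported singly here. Coordinates, lengths and exon overlaps are from GENCODE release 29 on GRCh38. Alternatives were other pseudocounts, filters, scalings and variance models, a replicate block, structural subunits alone and leaving out each library.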

Additional observations from a re-analysis of the deposited data

How the results depend on the processing

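Across 15 alternatives to the pseudocount, filter, scaling, variance model, block and set of libraries, 31 to 43 chain genes were called higher and 3 or 4 lower. The 43 came with a filter at a mean of 2 FPKM, and the 31 without a filter and again without scramble replicate 2. Of the 42 genes called higher 28 were so called in every alternative, as were the 3 called lower, and no called gene changed sign in any of the 15. The 14 calls lost in at least 1 alternative were NDUFA2, NDUFA6, NDUFA8, NDUFB3, NDUFB10, NDUFB11, NDUFAF1, NDUFAF4, NDUFV2, UQCRB, UQCRC2, COX4I1, COX6B1 and COX7A2, where the highest adjusted p was 0.142 (NDUFA6 and NDUFB3). Without 1 library, 31 to 42 genes were called higher. COX4I1 reached an adjusted p of 0.0728 without siDYRK2 replicate 1, COX7A2 0.0806 and NDUFV2 0.0810 without scramble replicate 2, and UQCRC2 0.0543 without siDYRK2 replicate 1. NDUFV2 reached 0.0887 without siDYRK2 replicate 3. The median log2 fold change of complex I was 0.14 in the reported fit and 0.156 with a pseudocount of 0.1. It was 0.164 after rescaling without mitochondrially encoded genes and 0.165 for structural subunits alone. When 1 library was left out it was 0.132 to 0.165, a range that takes in the 0.156 and the 0.164. For structural subunits alone all 4 SDHAF genes of complex II are left out. The median of complex II was then 0.180, against 0.076, and 1 gene was called lower, since SDHAF1 and SDHAF4 are among those left out. The cause of the other shifts was not tested. The fit with a replicate block called 40 chain genes higher, 35 of them among the 42, and 3 lower, with 4816 calls over all genes. The numbers are not shown to pair the libraries, since deviations of libraries with the same number correlated at −0.088 to 0.024 and only 2 of 6 libraries correlated best with their own number. Depth could not be weighed, because the table holds no counts.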
